A study of Homo sapiens with 15 samples.

Results

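Cyclins, cyclin-dependent kinases and genes whose symbols begin CDKN were followed in MV4-11 cells after 24 h with 4 compounds that the labels describe as BET inhibitors. The set held every protein-coding gene of the platform annotation whose symbol is CDK plus a number, begins CDKN, or is CCN plus 1 letter and a number. This gave 37 genes of the 14812 named genes, of which 11911 were protein-coding. MV4-11 is an established human acute myeloid leukemia line with a KMT2A-AFF1 fusion and an internal tandem duplication of FLT3. The 5 groups had 3 arrays each and were DMSO, the vehicle, DW71177, DW71374 and OTX015, each at 300 nM, and RVX208 at 5 uM. All groups were the same unmodified line in the same medium, so the results describe 1 line at a single time. The wells were plated in triplicate, but no label says that they were separate cultures, so p-values measure the spread between these arrays. OTX015, also called birabresib, takes up both BET bromodomains, RVX208 (apabetalone) prefers the second, and the DW compounds are known here by code name. Levels are log2 signals of a whole-transcript array, already normalized between arrays, so a shift shared by all genes is not seen and each difference is relative to the other genes.

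Cyclins are the regulatory subunits that switch on cyclin-dependent kinases. Cyclins D with CDK4 or CDK6 phosphorylate the retinoblastoma protein in G1, cyclins E and A with CDK2 drive entry into and passage through S phase, and cyclins B with CDK1 drive mitosis. A separate branch acts on transcription: CDK7, CDK9, CDK12 and CDK13 phosphorylate RNA polymerase II, and CDK8 or CDK19 belongs to the Mediator kinase module. BET proteins read acetylated chromatin and help recruit P-TEFb, the complex of CDK9 with cyclin T. In leukemias with KMT2A fusions CDK6 is a known dependency. Among the 37 genes CDKN2A, which encodes the INK4A inhibitor of CDK4 and CDK6 and the ARF protein, was the 1 that encodes a CDK inhibitor of the classical families. CDKN3 encodes a phosphatase that acts on CDK2, and CDKN2AIP and its paralog CDKN2AIPNL are named for the binding of CDKN2AIP to ARF.

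The DNA upstream of members that fell together is shown for 4 genes, because CDK4 was the member with the largest fall with OTX015 and the genes of cyclins A2, B1 and B2 are well-known carriers of cell-cycle promoter elements. Each is the 250 bases before the RefSeq gene start (GRCh38.p14), read 5′ to 3′ on the gene's strand. Capitals mark the letters CACGTG (E-box, the preferred site of MYC with MAX), CCAAT (the NF-Y box) and TTTGAA (a cell cycle genes homology region, CHR), each searched on both strands. Only this spelling of the CHR was searched, so a window with no marked CHR may hold another spelling. The windows lie at chr12:57752311-57752560, minus strand, for CDK4, at chr4:121823884-121824133, minus strand, for CCNA2, at chr5:69166900-69167149, plus strand, for CCNB1, and at chr15:59104896-59105145, plus strand, for CCNB2.
CDK4: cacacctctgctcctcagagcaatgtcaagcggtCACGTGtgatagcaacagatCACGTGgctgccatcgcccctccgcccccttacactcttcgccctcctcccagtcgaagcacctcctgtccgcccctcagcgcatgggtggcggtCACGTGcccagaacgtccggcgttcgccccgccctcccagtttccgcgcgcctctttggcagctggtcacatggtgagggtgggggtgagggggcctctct
CCNA2: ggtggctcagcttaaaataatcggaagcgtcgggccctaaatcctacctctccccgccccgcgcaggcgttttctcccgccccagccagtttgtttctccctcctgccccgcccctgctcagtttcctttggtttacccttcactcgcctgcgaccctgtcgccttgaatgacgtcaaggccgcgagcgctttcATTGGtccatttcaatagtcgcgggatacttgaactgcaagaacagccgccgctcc
CCNB1: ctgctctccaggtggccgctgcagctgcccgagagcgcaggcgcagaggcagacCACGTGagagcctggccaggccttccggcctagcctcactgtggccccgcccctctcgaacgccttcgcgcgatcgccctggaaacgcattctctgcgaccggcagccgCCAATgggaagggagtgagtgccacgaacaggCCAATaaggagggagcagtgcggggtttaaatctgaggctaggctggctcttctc
CCNB2: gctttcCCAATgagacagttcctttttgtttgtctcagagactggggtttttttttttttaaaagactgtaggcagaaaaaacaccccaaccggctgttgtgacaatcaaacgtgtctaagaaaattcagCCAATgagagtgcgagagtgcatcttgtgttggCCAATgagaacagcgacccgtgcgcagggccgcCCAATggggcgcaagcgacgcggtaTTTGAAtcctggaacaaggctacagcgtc
The CDK4 window held 3 E-boxes, which begin 216, 196 and 101 bases before the start. Of all 35116 windows of this length 6.34% held at least 1 E-box and 0.0797% held at least 3. CCNB2 held 4 CCAAT boxes and 1 CHR, CCNB1 held 2 CCAAT boxes and 1 E-box, and CCNA2 held 1 CCAAT box, on the opposite strand. At least 1 CCAAT box was found in 32.0% of all windows, at least 3 in 2.93%, and a CHR in 13.3%. Windows were found for 33 of the 37 genes. At least 1 of these windows held an E-box for CCNB1, CCNG2, CCNT1, CDK4, CDK7 and CDK8, of which CCNT1, CDK7 and CDK8 passed no test against DMSO. CCNG2 rose with OTX015, DW71177 and RVX208. At least 3 CCAAT boxes were found for CCNB2, CCNG1 and CDK19, and a CHR for CCNB2, CDK1, CDK19 and CDKN3. CCNG1 and CDK19 rose with the same compounds as CCNG2, while CCNB2, CDK1 and CDKN3 fell with OTX015 and DW71177. A match describes letters in a window and not the binding of a factor.

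The cell type was checked first. Of 10 myeloid markers fixed for the check 6 were analysed here: LYZ lay between 9.90 and 11.15 over the 15 arrays, FLT3 between 9.67 and 9.91, SPI1 between 7.38 and 7.78 and CSF1R between 5.36 and 7.09. The array medians were 3.72 to 3.79. MPO, at 3.94 to 4.78 and with a mean of 4.59 with DMSO, lay above them, and CD14, at 2.82 to 3.39, lay below them. Of the markers of other cell types NCAM1 reached 4.08, EPCAM 3.02 and DCN 1.85, while KRT18 lay between 7.53 and 7.98, KRT8 between 5.00 and 5.50 and PF4 between 5.37 and 6.10. Only 1 of 6 T, B and NK cell markers (NCAM1) and 1 of 5 erythroid and megakaryocytic markers (PF4) were analysed here. Of 7 epithelial and stromal markers 4 were. The myeloid list itself moved with the compounds: 4 of its 6 genes fell with OTX015, 3 with DW71177 and 3 with RVX208, where 14.5%, 9.88% and 3.11% of all genes fell. The log2 of its summed signal was 11.72 to 11.79 with DMSO, 11.14 to 11.16 with OTX015, 11.05 to 11.10 with DW71177, 11.28 to 11.34 with RVX208 and 11.64 to 11.76 with DW71374. The part of this shift in the results below was not tested. In bulk RNA, fewer cells of a type or of a cell-cycle phase and less RNA per cell cannot be told apart.

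Of the 13 cell-cycle cyclins and kinases, 10 fell and 1, CCND3, rose with OTX015, and 9 fell with DW71177. CCND1 and CCNB3 passed no test against DMSO, and CCNE2 was called lower with OTX015 but not with DW71177 (0.08). Of the RNA polymerase II kinases CDK13 rose with OTX015 and DW71177, and CDK7, CDK9 and CDK12 passed no test against DMSO. Limma called a gene changed at a Benjamini-Hochberg adjusted p under 0.05 over all 14812 genes. OTX015 changed 22 of the 37 genes, 14 lower and 8 higher, or 59.5% against 25.7% of all genes (14.5% lower and 11.2% higher). DW71177 changed 16, 10 lower and 6 higher, or 43.2% against 19.8% of all genes (9.88% lower and 9.95% higher). RVX208 changed 8, 4 lower and 4 higher, or 21.6% against 6.52% of all genes (3.11% lower and 3.41% higher). When only the 6736 genes with a mean of at least 5 were fitted, OTX015 changed 23 of 34 members, beside 56.1% of those genes. DW71177 then changed 19 of 34, beside 48.2%, and RVX208 10 of 34, beside 23.4%. The gap to the other genes was narrower there, and the shares of all genes given elsewhere include many dim genes. DW71374 changed 0 of 37, against 0% of all genes, and 1 of the 37, CCNG2, had an unadjusted limma p under 0.05. The medians over the 37 genes were -0.05, -0.01, 0.00 and 0.01 for OTX015, DW71177, RVX208 and DW71374, beside 0.00, -0.01, -0.01 and -0.01 over all genes, since falls and rises lay on both sides. The 4 comparisons share the DMSO arrays. Arrays that do not overlap between groups, given for many genes below, were common: against DMSO they held for 36.2% of all genes with OTX015, 32.6% with DW71177, 26% with RVX208 and 10.7% with DW71374. They held for 15.5% between DW71177 and OTX015, 31.6% between DW71177 and DW71374 and 36.2% between OTX015 and DW71374. Of the 37 genes 22 passed against DMSO with at least 1 compound and 15 with none.

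**Figure D1:**
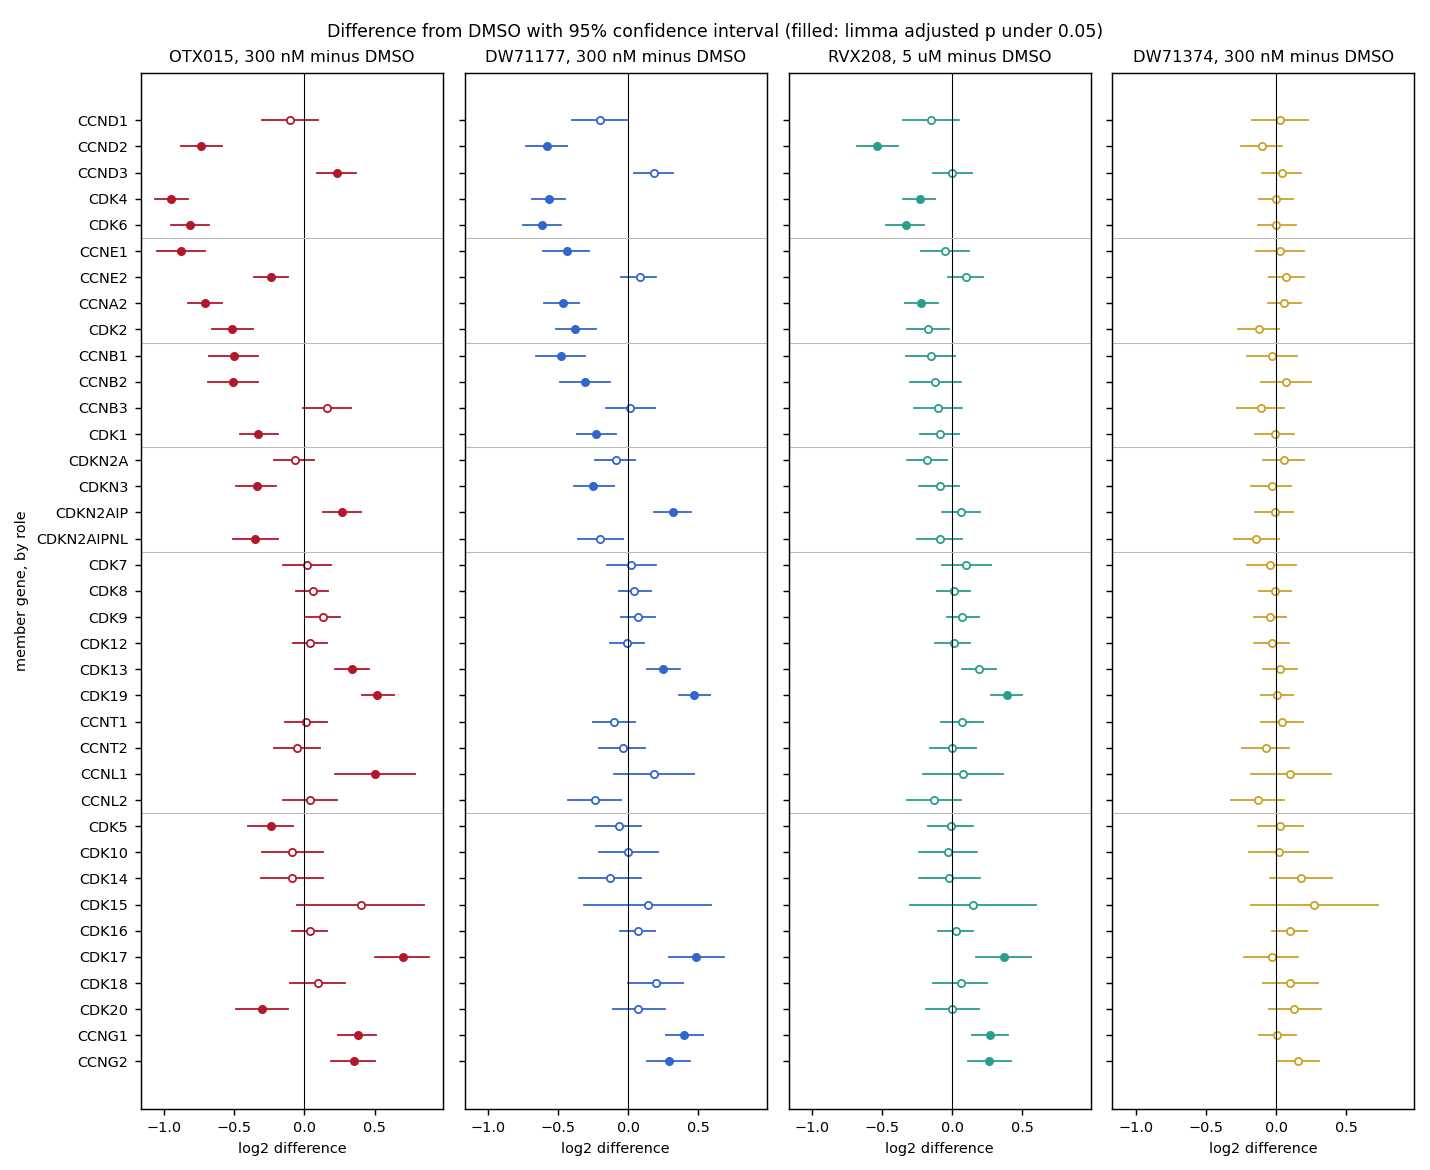
The log2 difference from DMSO (horizontal axis) of each of the 37 genes (vertical axis, in blocks by role), in a panel per compound, with the 95% confidence interval of the limma fit as a line; filled points passed the test. In the top 3 blocks 10 of 13 genes lie to the left with OTX015 and 9 with DW71177 as filled points, 4 with RVX208 and 0 with DW71374.

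The largest fall with OTX015, DW71177 and RVX208 lay each time in the G1 group, in CDK4, CDK6 and CCND2 respectively. CDK4 and CDK6, the kinases that cyclins D activate, and CCND2, the cyclin D2 gene, fell with OTX015, DW71177 and RVX208. CDK4 read 8.92, 8.90 and 8.98 on the DMSO arrays, 8.03, 7.94 and 7.99 with OTX015, 8.35, 8.42 and 8.32 with DW71177, 8.70, 8.69 and 8.71 with RVX208, and 9.01, 8.92 and 8.88 with DW71374. The OTX015, DW71177 and RVX208 arrays lay below DMSO without overlap, OTX015 lowest, and the DW71374 arrays spread on both sides of DMSO. CDK4 was 1.93-fold lower with OTX015 (log2 -0.95 ± 0.055, SE, n = 3 and 3, limma adjusted p = 3.3e-08), 1.49-fold lower with DW71177 (-0.57, limma adjusted p = 6.2e-06) and 1.18-fold lower with RVX208 (-0.23, limma adjusted p = 0.021).

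CDK6, a kinase that acts beside CDK4 and is prominent in blood cells, read 8.87, 8.84 and 8.80 with DMSO, 8.02, 7.94 and 8.10 with OTX015, 8.19, 8.29 and 8.17 with DW71177, 8.46, 8.50 and 8.54 with RVX208, and 8.75, 8.85 and 8.91 with DW71374. OTX015, DW71177 and RVX208 each lay apart from DMSO and from one another, while DW71374 overlapped DMSO. CDK6 fell by 0.82 ± 0.063 with OTX015 (1.76-fold, limma adjusted p = 4.2e-07), by 0.62 with DW71177 (1.54-fold) and by 0.33 with RVX208 (1.26-fold, limma adjusted p = 0.0059).

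CCND2 read 7.32, 7.36 and 7.38 with DMSO, 6.55, 6.63 and 6.68 with OTX015, 6.67, 6.78 and 6.87 with DW71177, 6.82, 6.85 and 6.78 with RVX208, and 7.17, 7.36 and 7.22 with DW71374. Here the RVX208 arrays lay within the range of the DW71177 arrays, and the DW71177 and OTX015 ranges overlapped by 1 array each. CCND2 fell by 0.74 ± 0.067 with OTX015 (1.67-fold, limma adjusted p = 1.8e-06), by 0.58 with DW71177 and by 0.54 with RVX208 (1.45-fold, limma adjusted p = 0.00035), the largest fall of any of the 37 genes with RVX208. A second, dimmer CCND2 feature averaged 4.81 with DMSO, 4.44 with OTX015, 4.62 with DW71177, 4.54 with RVX208 and 4.98 with DW71374. The other D cyclins did not follow. CCND3, the cyclin D3 gene, read 5.69 to 5.76 with DMSO and 5.90 to 6.03 with OTX015, a rise of 0.23 ± 0.065 (limma adjusted p = 0.017). This call was lost without DMSO replicate 1 (0.21, adjusted p = 0.066) or OTX015 replicate 3 (0.20, adjusted p = 0.07). CCND3 differed by 0.18 with DW71177 and 0.00 with RVX208, and CCND1, the cyclin D1 gene, by -0.10, -0.20 and -0.15 with OTX015, DW71177 and RVX208, none of which passed the test.

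The S phase group fell in full with OTX015, 4 of 4 genes, and in 3 of 4 with DW71177 and 1 of 4 with RVX208, beside 14.5%, 9.88% and 3.11% of all genes called lower. CCNE1 encodes cyclin E1, which activates CDK2 at the start of S phase. It read 7.49, 7.62 and 7.52 with DMSO, 6.59, 6.69 and 6.70 with OTX015, 7.07, 7.28 and 6.95 with DW71177, 7.48, 7.51 and 7.48 with RVX208, and 7.67, 7.53 and 7.52 with DW71374. Only the OTX015 and DW71177 arrays lay wholly below DMSO, and they did not overlap each other. CCNE1 fell 1.84-fold with OTX015 (log2 -0.88 ± 0.078, limma adjusted p = 1.4e-06) and 1.36-fold with DW71177 (-0.44, limma adjusted p = 0.00095), and differed by -0.05 with RVX208 (95% interval -0.22 to 0.12).

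Its paralog CCNE2, for cyclin E2, read 7.49, 7.54 and 7.55 with DMSO, 7.21, 7.38 and 7.26 with OTX015, 7.59, 7.65 and 7.57 with DW71177, 7.65, 7.56 and 7.66 with RVX208, and 7.59, 7.63 and 7.59 with DW71374. It fell with OTX015 (-0.24 ± 0.057, limma adjusted p = 0.0055), whereas every array of the other compounds lay above the 3 DMSO arrays, by differences of 0.08 with DW71177, 0.10 with RVX208 and 0.07 with DW71374 that passed no test (limma adjusted p = 0.43, 0.4 and 0.99).

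CCNA2, for cyclin A2 of S phase and G2, read 9.44, 9.45 and 9.38 with DMSO, 8.75, 8.76 and 8.63 with OTX015, 8.94, 9.02 and 8.89 with DW71177, 9.20, 9.23 and 9.18 with RVX208, and 9.53, 9.45 and 9.47 with DW71374. The OTX015, DW71177 and RVX208 groups were apart from DMSO and from one another. CCNA2 fell by 0.71 ± 0.057 with OTX015 (1.63-fold, limma adjusted p = 6.5e-07), by 0.47 with DW71177 and by 0.22 with RVX208 (limma adjusted p = 0.037). CDK2, the kinase of cyclins E and A, read 8.12, 8.10 and 8.05 with DMSO, 7.49, 7.63 and 7.59 with OTX015, 7.73, 7.82 and 7.59 with DW71177, 7.91, 7.90 and 7.95 with RVX208, and 8.05, 7.96 and 7.89 with DW71374. The 2 lower groups shared part of their range, and the DW71374 and RVX208 arrays lay between them and DMSO, DW71374 meeting the lowest DMSO array. CDK2 fell by 0.52 ± 0.068 with OTX015 (1.43-fold, limma adjusted p = 5.3e-05) and by 0.38 with DW71177 (limma adjusted p = 0.0011), and differed by -0.17 with RVX208 (limma adjusted p = 0.17).

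**Figure D2:**
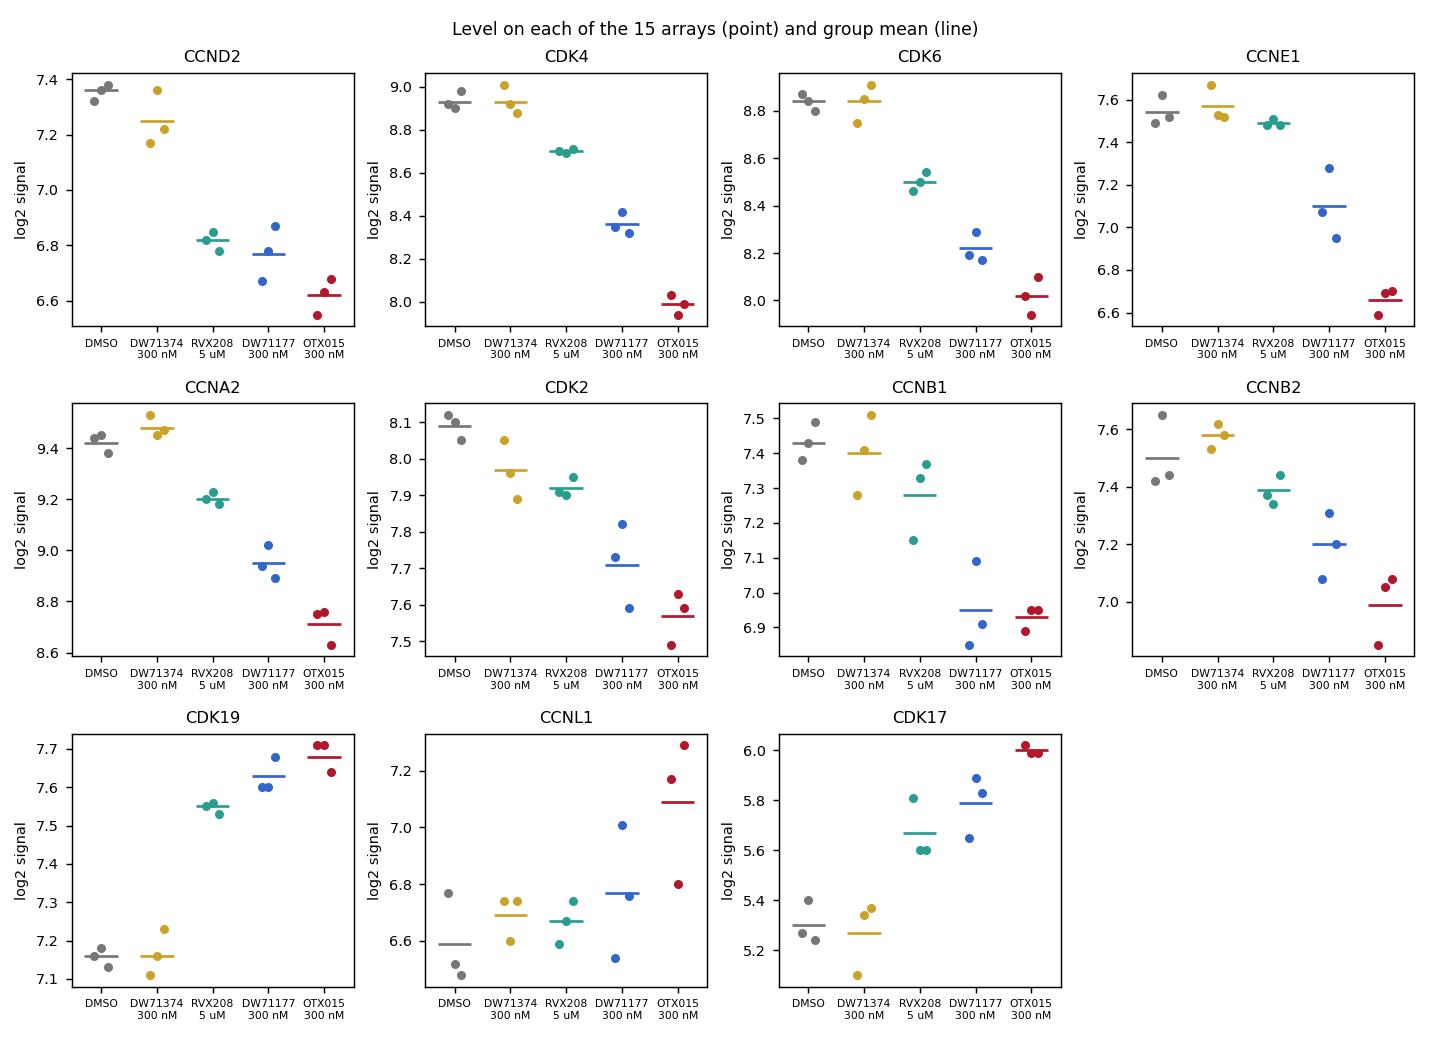
The log2 signal (vertical axis, a scale of its own in each panel that does not start at 0) on each of the 15 arrays, as points, and the group mean, as a line, for the 11 genes that passed the test with a difference of at least 0.5 from DMSO with 1 or more compounds. In the CDK4 panel the OTX015 points sit between 7.94 and 8.03 and the DMSO points between 8.90 and 8.98, and in the CDK19 panel the order is turned, with DMSO at 7.13 to 7.18 and OTX015 at 7.64 to 7.71.

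Of the 4 mitotic genes limma called 3 lower with OTX015 and with DW71177, and with RVX208 0, where 0 also had an unadjusted p under 0.05. Of all genes 14.5%, 9.88% and 3.11% were called lower with OTX015, DW71177 and RVX208. CCNB1 and CCNB2 encode the B cyclins that carry CDK1 into mitosis. CCNB1 read 7.38, 7.43 and 7.49 with DMSO, 6.89, 6.95 and 6.95 with OTX015, 6.85, 7.09 and 6.91 with DW71177, 7.15, 7.33 and 7.37 with RVX208, and 7.28, 7.41 and 7.51 with DW71374. The OTX015 arrays fell inside the DW71177 range, and the RVX208 arrays reached up to just under the lowest DMSO array. CCNB1 fell by 0.50 ± 0.082 with OTX015 (1.42-fold, limma adjusted p = 0.00034) and by 0.48 with DW71177 (1.40-fold, limma adjusted p = 0.00069), and differed by -0.15 with RVX208 (limma adjusted p = 0.34).

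CCNB2 read 7.42, 7.65 and 7.44 with DMSO, 6.85, 7.05 and 7.08 with OTX015, 7.08, 7.31 and 7.20 with DW71177, 7.37, 7.34 and 7.44 with RVX208, and 7.53, 7.62 and 7.58 with DW71374. All OTX015 and DW71177 arrays lay below DMSO, and RVX208 overlapped it. CCNB2 fell by 0.51 ± 0.083 with OTX015 (limma adjusted p = 0.00034) and by 0.31 with DW71177 (limma adjusted p = 0.017), the second call being lost without DMSO replicate 2 (-0.23, adjusted p = 0.086) or DW71177 replicate 1 (-0.25, adjusted p = 0.075).

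CDK1, the mitotic kinase itself, fell by 0.33 ± 0.064 with OTX015 (limma adjusted p = 0.0015) and by 0.23 with DW71177 (limma adjusted p = 0.019), and differed by -0.09 with RVX208. Its arrays read 7.63, 7.52 and 7.61 with DMSO, 7.19, 7.26 and 7.33 with OTX015 and 7.24, 7.41 and 7.41 with DW71177, so both groups lay below DMSO. The DW71177 call was lost without DMSO replicate 1 or 3 or DW71177 replicate 1 (-0.18 to -0.22, adjusted p = 0.063 to 0.086). CCNB3, for the meiotic cyclin B3, was dim, with group means of 2.58 to 2.85, and passed no test against DMSO.

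The genes named CDKN went different ways. CDKN2A, at group means of 5.15 to 5.38, differed by -0.07, -0.09 and -0.18 with OTX015, DW71177 and RVX208 and passed no test, although the RVX208 difference did when only genes with a mean of at least 5 were tested. CDKN3 fell by 0.34 ± 0.067 with OTX015 (limma adjusted p = 0.0015) and by 0.25 with DW71177 (limma adjusted p = 0.017), from 7.11, 7.33 and 7.23 with DMSO to 6.83, 6.99 and 6.83 and to 7.03, 6.97 and 6.93. Both groups lay below all DMSO arrays, but the DW71177 call was lost without DMSO replicate 2 or 3 or DW71177 replicate 3 (-0.20 to -0.24, adjusted p = 0.051 to 0.087). CDKN2AIP rose by 0.27 ± 0.064 with OTX015 (limma adjusted p = 0.0063) and by 0.32 with DW71177 (limma adjusted p = 0.0027), whereas its paralog CDKN2AIPNL fell by 0.35 ± 0.075 with OTX015 (limma adjusted p = 0.0028). The DW71374 arrays also lay below DMSO for CDKN2AIPNL (-0.14, limma adjusted p = 0.99). OTX015 against DW71374 was not called for this gene (-0.21, limma adjusted p = 0.052), though it was under some alternative settings. With RVX208 limma called 0 of the 4, of which 1, CDKN2A, had an unadjusted p under 0.05. It called 3 of the 4 with OTX015 and 2 with DW71177. Of all genes 25.7%, 19.8% and 6.52% were called with OTX015, DW71177 and RVX208.

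In the transcription group limma called 3 of 10 genes higher with OTX015, 2 with DW71177 and 1 with RVX208, and none lower. These shares of 30%, 20% and 10% were near the 25.7%, 19.8% and 6.52% of all genes called. They were below the 56.1%, 48.2% and 23.4% called when only genes with a mean of at least 5 were fitted. The genes of this group with an unadjusted p under 0.05 numbered 4, 3 and 2. CDK19, 1 of the paired Mediator kinases, rose with OTX015, DW71177 and RVX208. It read 7.16, 7.18 and 7.13 with DMSO, 7.71, 7.71 and 7.64 with OTX015, 7.60, 7.60 and 7.68 with DW71177, 7.55, 7.56 and 7.53 with RVX208, and 7.11, 7.16 and 7.23 with DW71374. The OTX015, DW71177 and RVX208 arrays were all above DMSO, and OTX015 and DW71177 shared part of their range. The rise was 0.52 ± 0.052 with OTX015 (1.44-fold, limma adjusted p = 4.4e-06), 0.47 with DW71177 (1.38-fold, limma adjusted p = 2.2e-05) and 0.39 with RVX208 (1.31-fold, limma adjusted p = 6e-04). The paralog CDK8, which can take the same place in Mediator, read 6.88 to 6.93 with DMSO, 6.93 to 7.03 with OTX015, 6.94 to 6.97 with DW71177 and 6.84 to 6.98 with RVX208. Its differences of 0.06, 0.04 and 0.01 passed no test.

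CDK13, which with cyclin K phosphorylates elongating RNA polymerase II, read 9.29, 9.27 and 9.24 with DMSO, 9.65, 9.54 and 9.63 with OTX015, 9.56, 9.56 and 9.42 with DW71177 and 9.44, 9.48 and 9.45 with RVX208. All 3 groups lay above DMSO. The rise of 0.34 ± 0.056 with OTX015 (limma adjusted p = 0.00038) and of 0.25 with DW71177 (limma adjusted p = 0.0058) passed the test, and the difference of 0.19 with RVX208 did not (limma adjusted p = 0.064), though it did under 4 of 8 alternative settings that omit no array of the pair. Its close relative CDK12, which shares that cyclin, differed by 0.04, -0.01 and 0.01.

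CCNL1 encodes cyclin L1, a partner of CDK11 linked to splicing, and its arrays spread more than those of most members. It read 6.77, 6.52 and 6.48 with DMSO, 7.17, 6.80 and 7.29 with OTX015, 6.54, 7.01 and 6.76 with DW71177, 6.59, 6.67 and 6.74 with RVX208, and 6.74, 6.60 and 6.74 with DW71374. Only the OTX015 arrays lay wholly above DMSO. The rise of 0.50 ± 0.13 with OTX015 (limma adjusted p = 0.011) was lost without OTX015 replicate 3 (0.40, adjusted p = 0.058).

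P-TEFb itself passed no test against DMSO. CDK9, its kinase, read 8.27, 8.24 and 8.25 with DMSO, 8.31, 8.37 and 8.46 with OTX015, 8.33, 8.35 and 8.28 with DW71177, and 8.32, 8.35 and 8.31 with RVX208. Every one of these 9 arrays lay above the 3 DMSO arrays, but the differences were 0.13 ± 0.054 with OTX015 (limma adjusted p = 0.11) and 0.07 with DW71177 and with RVX208. The OTX015 difference passed under 3 of these alternative settings. The cyclin T genes CCNT1 and CCNT2 differed by 0.01 and -0.05 with OTX015, -0.10 and -0.04 with DW71177, and 0.07 and 0.00 with RVX208. CDK7, the kinase of TFIIH that also activates other CDKs, differed by 0.02, 0.02 and 0.10. CCNL2, for cyclin L2, differed by 0.04, -0.24 and -0.13 (limma adjusted p = 0.078 for DW71177), and was called lower with DW71177 under 3 of the alternative settings. The DW71374 arrays also lay below DMSO for CCNL2 (-0.13, limma adjusted p = 0.99), and DW71177 against DW71374 was not called (-0.11, limma adjusted p = 0.5).

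Among the kinases and cyclins with other roles, CDK17, a PCTAIRE kinase, had the largest rise of the 37 genes with OTX015. It read 5.27, 5.40 and 5.24 with DMSO, 6.02, 5.99 and 5.99 with OTX015, 5.65, 5.89 and 5.83 with DW71177, 5.81, 5.60 and 5.60 with RVX208, and 5.10, 5.34 and 5.37 with DW71374. OTX015, DW71177 and RVX208 lay above DMSO without overlap, OTX015 above both others. The rise was 0.70 ± 0.090 with OTX015 (1.62-fold, limma adjusted p = 4.4e-05), 0.48 with DW71177 (limma adjusted p = 0.0014) and 0.37 with RVX208 (limma adjusted p = 0.026). Its relatives CDK16 and CDK18 passed no test, with 0.04 and 0.10 with OTX015.

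The cyclin G genes, which are not drivers of the cycle and of which CCNG1 is a p53 target and CCNG2 is known from resting cells, rose with OTX015, DW71177 and RVX208. CCNG1 read 8.36, 8.33 and 8.25 with DMSO, 8.71, 8.64 and 8.72 with OTX015, 8.65, 8.80 and 8.69 with DW71177, and 8.55, 8.62 and 8.58 with RVX208. Every array of these compounds lay above DMSO, by 0.38 ± 0.062 on average with OTX015, 0.40 with DW71177 and 0.27 with RVX208 (limma adjusted p = 0.00038, 0.00034 and 0.019). CCNG2 read 5.28, 5.15 and 5.28 with DMSO, 5.60, 5.46 and 5.69 with OTX015, 5.54, 5.56 and 5.47 with DW71177, and 5.58, 5.46 and 5.47 with RVX208. It rose by 0.35 ± 0.071, 0.29 and 0.26 (limma adjusted p = 0.0021, 0.01 and 0.04), and the DW71177 call was lost without DMSO replicate 2 (0.24, adjusted p = 0.052). The DW71374 arrays, at 5.32 to 5.45, also lay above DMSO for CCNG2 (0.16, interval 0.01 to 0.31, limma adjusted p = 0.99). Set against DW71374, CCNG2 was not called with DW71177 (0.12, limma adjusted p = 0.29) or OTX015 (0.18, limma adjusted p = 0.076). The OTX015 difference was called after quantile normalization and when only genes with a mean of at least 5 were tested.

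Small falls with OTX015 were called for CDK5, a kinase best known from neurons (-0.24 ± 0.074, limma adjusted p = 0.029), and CDK20 (-0.30 ± 0.087, limma adjusted p = 0.018). The CDK5 call was lost when any 1 of the 6 arrays was left out (-0.22 to -0.25, adjusted p = 0.05 to 0.086), after quantile normalization and when adjusted over all features. That of CDK20 was lost without DMSO replicate 2 or OTX015 replicate 1 or 3 (-0.25 to -0.30, adjusted p = 0.052 to 0.086). The 15 genes that passed no test against DMSO were CCND1, CCNB3, CDKN2A, CDK7, CDK8, CDK9, CDK12, CCNT1, CCNT2, CCNL2, CDK10, CDK14, CDK15, CDK16 and CDK18. Their differences from DMSO ran from -0.24 to 0.40 over the 4 compounds. CCNB3, CDK14 and CDK15 were dim, with means under 5, and the 34 others had means of at least 5.

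Several of the RVX208 calls were close to the threshold. Those of CCND2, CDK6 and CDK19 held whichever array was left out. The CDK4 call was lost without DMSO replicate 1 or 3 or any RVX208 array (-0.21 to -0.24, adjusted p = 0.056 to 0.087), and those of CCNA2 (-0.20 to -0.24, adjusted p = 0.063 to 0.12) and CCNG2 (0.22 to 0.29, adjusted p = 0.073 to 0.15) without any 1 of the 6 arrays. The CDK17 call was lost without DMSO replicate 1 or 3 or RVX208 replicate 1 (0.30 to 0.35, adjusted p = 0.089 to 0.11) and that of CCNG1 without DMSO replicate 3 or RVX208 replicate 2 or 3 (0.24 to 0.27, adjusted p = 0.056 to 0.084). The dose of RVX208 differed from that of the other compounds, so its values stand beside theirs with no test between them.

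The dose of 300 nM allowed 3 pairs of compounds to be compared. DW71177 against OTX015 asked whether their effects on these genes differed in size. CDK4 was 1.30-fold higher with DW71177 (log2 0.38 ± 0.055, SE over 3 arrays each, 95% interval 0.26 to 0.50, with limma adjusted p = 0.008), CCNE1 1.36-fold higher (0.44, interval 0.27 to 0.61, limma adjusted p = 0.018) and CCNE2 1.25-fold higher (0.32, interval 0.20 to 0.44, limma adjusted p = 0.018). The arrays of the compounds did not overlap for these 3 genes. They were 8.11% of the 37 genes, beside 1.26% of all genes called in this comparison (1.07% higher). The count fell to 1, CDK4, without DW71177 replicate 2 or OTX015 replicate 1. The CCNE1 differences were then 0.35 and 0.41 (adjusted p = 0.053 and 0.076) and those of CCNE2 0.30 and 0.28 (adjusted p = 0.061 and 0.076), and CCNE2 was also lost without OTX015 replicate 3 (0.31, adjusted p = 0.06).

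For the other 34 genes no difference between DW71177 and OTX015 was called. CDK6 (0.20, interval 0.06 to 0.33, limma adjusted p = 0.16), CCNA2 (0.24, interval 0.11 to 0.36, limma adjusted p = 0.065) and CDK20 (0.38, interval 0.19 to 0.57, limma adjusted p = 0.054) had intervals that left out 0 and arrays that did not overlap. CCNL2 (-0.28, interval -0.47 to -0.09, limma adjusted p = 0.16) and CDK17 (-0.21, interval -0.40 to -0.02, limma adjusted p = 0.31) did too, with DW71177 lower. CDK6, CCNA2 and CDK20 passed the test when only genes with a mean of at least 5 were fitted and with another variance model, which each gave 6 calls. Of all genes fitted 8.8% and 3.36% were called under these settings. CCNB1 (0.02, interval -0.16 to 0.20), CCNG1 (0.02, interval -0.11 to 0.16) and CDK19 (-0.06, interval -0.17 to 0.06) had intervals around 0. For 34 of the 37 genes the interval lay within 1.5-fold either way, the exceptions being CCNE1, CCNL1 and CDK15.

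**Figure D3:**
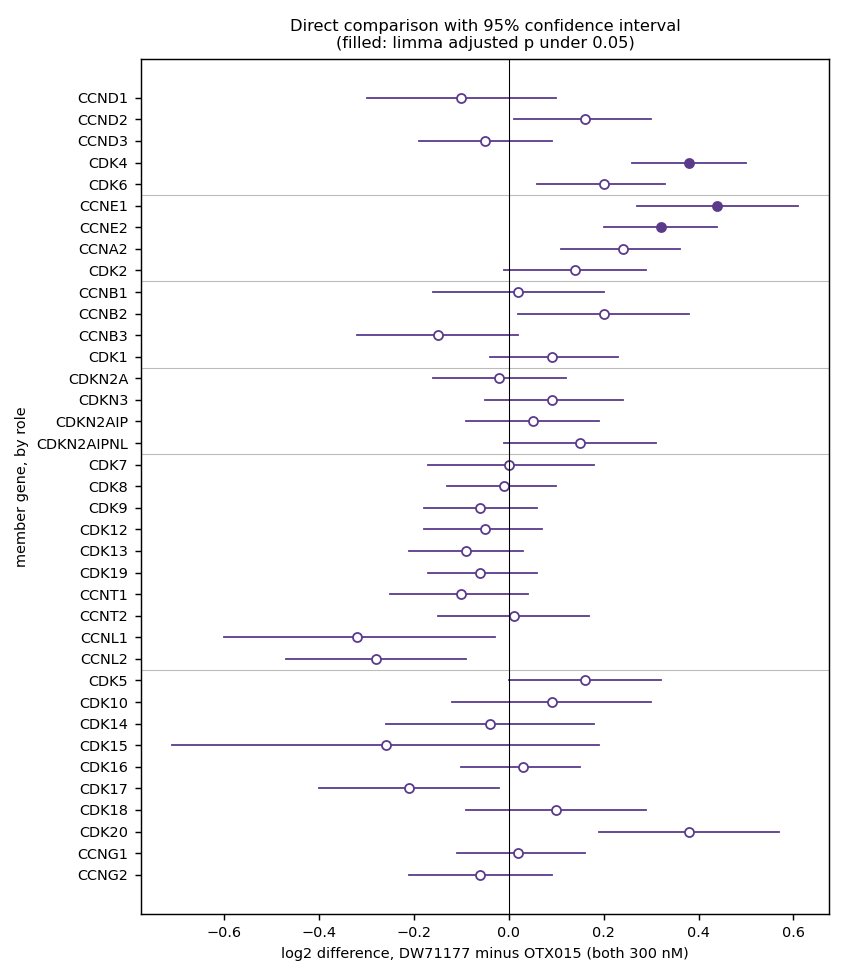
The log2 difference of DW71177 minus OTX015 (horizontal axis), both at 300 nM, for the 37 genes (vertical axis, in blocks by role), with 95% confidence intervals; filled points passed the test. CDK4, CCNE1 and CCNE2 are the filled points, at 0.38, 0.44 and 0.32.

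The other 2 pairs set DW71177 and OTX015 against DW71374, which changed 0 of the 37 genes against DMSO. For 36 of the 37 genes its 95% interval against DMSO lay within 1.5-fold either way, the exception being the dim CDK15 (-0.18 to 0.73). CDK4 differed from DMSO by 0.00 (interval -0.12 to 0.12), CDK6 by 0.00 (-0.13 to 0.14) and CCND2 by -0.10 (-0.25 to 0.04). Set directly against DW71374, DW71177 changed 16 genes, 11 lower and 5 higher (43.2%, beside 19.5% of all genes, 9.51% lower and 9.98% higher), and OTX015 changed 22, 13 lower and 9 higher (59.5%, beside 25.2% of all genes, 14% lower and 11.1% higher). In the fit of genes with a mean of at least 5, DW71177 changed 16 of 34 members, beside 46.4% of those genes. OTX015 changed 23 of 34 there, beside 56%. Some calls of the main fit against DW71374 were weak. CDK9 (0.17, limma adjusted p = 0.031) and the dim CCNB3 (0.27, limma adjusted p = 0.021) were called higher with OTX015. The dim CDK14 (-0.31, limma adjusted p = 0.049) was called lower with DW71177. These calls were lost under 6 of 14, 6 of 13 and 8 of 13 alternatives. Other calls were lost under some alternatives too. With OTX015 those of CCND3 (0.19, limma adjusted p = 0.043) and CCNL1 (0.40, limma adjusted p = 0.04) were lost under 9 and 8 of 14. With DW71177 that of CDKN3 (-0.22, limma adjusted p = 0.036) was lost under 7 of 14. CDK6 was 1.54-fold lower with DW71177 than with DW71374 (-0.62, interval -0.76 to -0.49, limma adjusted p = 9.6e-06) and 1.76-fold lower with OTX015 (-0.82, interval -0.95 to -0.68, limma adjusted p = 4e-07). CDK19 was 1.38-fold higher with DW71177 (0.46, interval 0.35 to 0.58) and 1.43-fold higher with OTX015 (0.52, interval 0.41 to 0.63).

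The partners and regulators of these kinases were read from lists chosen by role. Only 10 of 13 pocket protein, E2F and DP genes and 4 of 6 kinases and phosphatases of CDKs were analysed here. The same held for 5 of 8 Cks and degradation genes, 3 of 5 P-TEFb partners and 15 of 18 genes outside the rule. Of 10 pocket protein, E2F and DP genes 7 fell and 1 rose with OTX015 (median -0.50), 5 fell and 1 rose with DW71177, and 1 fell and 1 rose with RVX208. The called shares were 80%, 60% and 20%, beside 25.7%, 19.8% and 6.52% of all genes. The gene that rose was RB1, for the retinoblastoma protein, the main substrate of CDK4 and CDK6: by 0.70 ± 0.052 with OTX015 (limma adjusted p = 2.9e-07), 0.72 with DW71177 and 0.47 with RVX208 (limma adjusted p = 0.00014), a gene named after its values were seen. RBL1, for the related pocket protein p107, fell with OTX015 (-0.87), DW71177 (-0.54) and RVX208 (-0.28). The E2F genes E2F2 and E2F8 fell by 0.75 and 0.74 with OTX015 and by 0.45 and 0.40 with DW71177. Of 7 genes of the DREAM and MYB-MuvB complexes and FOXM1, 5 fell and 1 rose with OTX015 and with DW71177, and 1 fell with RVX208, called shares of 85.7%, 85.7% and 14.3% beside the same shares of all genes. The 1 that rose was LIN37 (0.27 with OTX015 and 0.28 with DW71177), named after its values were seen. MYBL2 fell by 0.89, 0.63 and 0.30 with OTX015, DW71177 and RVX208, and LIN9 and FOXM1 by 0.83 and 0.78 with OTX015 and by 0.51 and 0.46 with DW71177.

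Of 4 kinases and phosphatases that set CDK activity, 4 fell with OTX015, 3 with DW71177 and 1 with RVX208, where 14.5%, 9.88% and 3.11% of all genes fell. CDC25A, which removes the inhibitory phosphates of CDK2, fell 2.41-fold with OTX015 (log2 -1.27 ± 0.072, limma adjusted p = 2.9e-08), 2.23-fold with DW71177 (-1.16, limma adjusted p = 1.4e-07) and 1.43-fold with RVX208 (-0.51, limma adjusted p = 0.00077). Its opponent WEE1 fell by 0.47 with OTX015 and 0.31 with DW71177, and CDC25C fell by 0.36 with OTX015. Of 5 genes of Cks proteins and cyclin degradation 4 fell with OTX015 and with DW71177, beside the same shares of all genes, and 0 with RVX208 in limma, where 1 had an unadjusted p under 0.05. CKS1B, CKS2 and FBXO5 fell by 0.34, 0.33 and 0.31 with OTX015.

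Of 15 cyclins and kinases whose symbols miss the rule, 2 rose and 3 fell with OTX015 (33.3%, beside 25.7% of all genes). With DW71177 2 rose and 2 fell (26.7%, beside 19.8%), and with RVX208 1 fell (6.67%, beside 6.52%), so these shares were near those of all genes. CCNH, the cyclin of CDK7, rose by 0.35 with OTX015 and 0.32 with DW71177. The other gene that rose was CCNI (0.31 and 0.20), also named after its values were seen, and CCNJ fell by 0.40, 0.40 and 0.35 with OTX015, DW71177 and RVX208. CDKL1 fell by 0.45 with OTX015. Of 3 P-TEFb partners limma called 2 with OTX015, 2 with DW71177 and 1 with RVX208, where 25.7%, 19.8% and 6.52% of all genes were called. HEXIM1, which holds P-TEFb inactive, rose with OTX015 (1.65 ± 0.068), DW71177 (1.11) and RVX208 (0.74) on the brighter of its features, while the dimmer one averaged 4.62 with DMSO, 5.47 with OTX015, 5.34 with DW71177 and 5.12 with RVX208. MEPCE, which caps the 7SK RNA of the same complex, fell by 0.22 with OTX015 and 0.23 with DW71177. DW71374 changed 0 genes of these lists in limma, and 1 gene each of the pocket protein list, the CDK kinase and phosphatase list and the list outside the rule had an unadjusted p under 0.05.

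**Figure D4:**
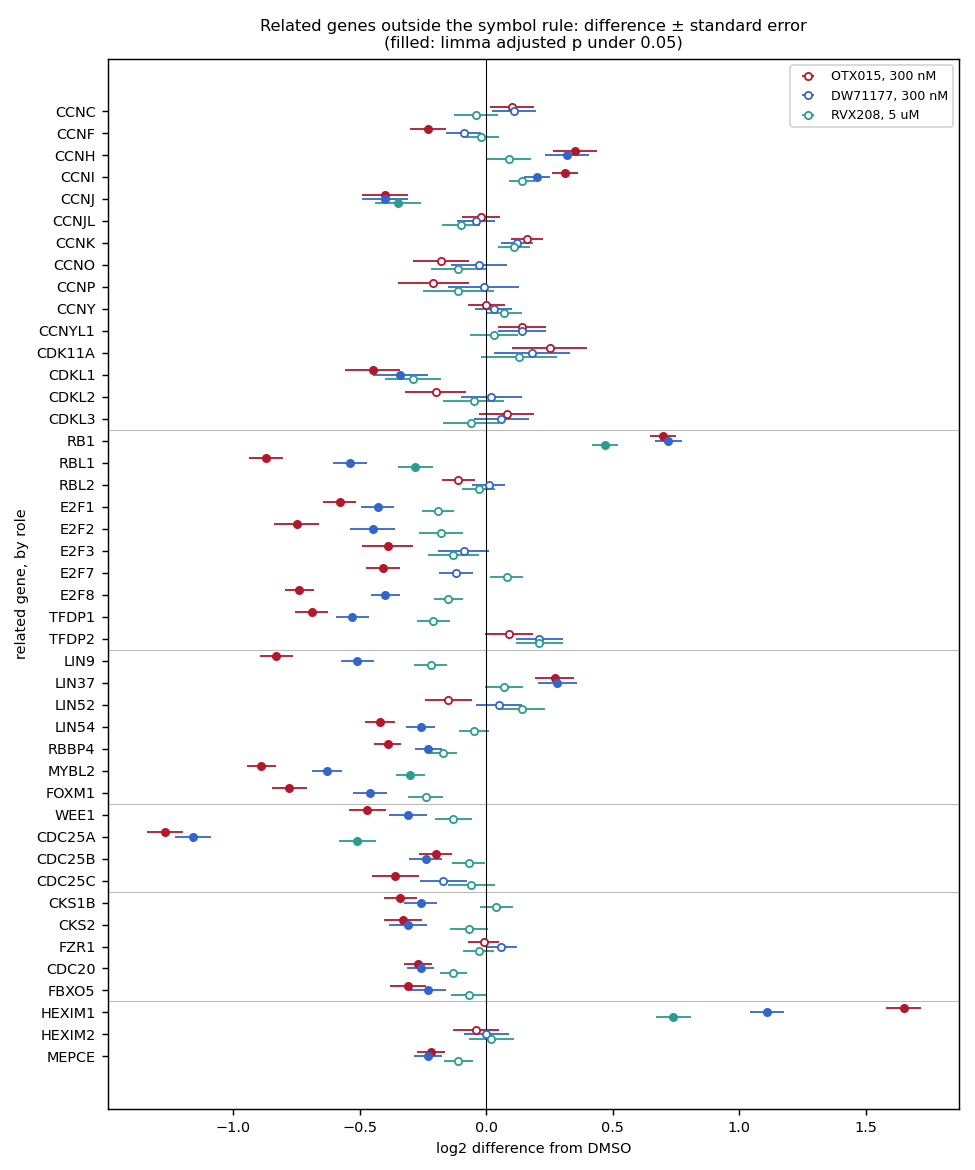
The log2 difference from DMSO (horizontal axis) with its standard error for the related genes (vertical axis, in blocks by role) with OTX015, DW71177 and RVX208; filled points passed the test. CDC25A lies farthest left, at -1.27 with OTX015, and HEXIM1 farthest right, at 1.65, and RB1 lies to the right of its block with all 3 compounds.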

How the data were processed

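The deposited values were log2 signals of 15 Affymetrix Human 2.0 ST arrays (total RNA, biotin-labelled sense cDNA). The authors had normalized them between arrays, as near-identical array medians of 3.72 to 3.79 show. How they corrected background, which normalization and software they used, and on which build, is not given in the sources read. Of 44629 features 15835 named 1 gene, 0 named several and 28794 were unnamed. All 15835 matched RefSeq. They gave 14812 genes, the brightest feature (highest mean) standing for each of 651 genes with several. The number of arrays limits the precision.

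One limma fit (3.58.1, R 4.3.3) of 5 group means left 10 residual degrees of freedom, was tested on simulated data, and gave differences, standard errors and 95% intervals. P-values were adjusted (Benjamini-Hochberg) over all genes. Alternatives were the mean of a gene's features, a mean of at least 5, quantile normalization, eBayes with trend and robust, array weights, adjustment over all features, a replicate block, the 6 arrays of a pair alone, and each array left out.

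Members and lists were chosen with earlier results of these data known. All array values are given for members called against DMSO with a difference of at least 0.5, and for CDK6. Of related genes, the 3 with the largest called difference per role with OTX015 are named.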

Additional observations from a re-analysis of the deposited data

How the results depend on the processing

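Of 87 calls of the 37 genes 60 kept their direction and call under every alternative, and none of the others turned direction. The number of genes called with RVX208 fell from 8 to 3 when p-values were adjusted over all features and to 3 when only the 6 arrays were fitted. DW71177 against OTX015 gave 3 calls, 6 with genes of a mean of at least 5, 6 with eBayes trend and robust, 1 adjusted over all features and 0 with only the 6 arrays. Leaving out 1 array at a time gave 18 to 21 calls for OTX015, 13 to 17 for DW71177, 3 to 6 for RVX208, 0 to 0 for DW71374, 1 to 3 for DW71177 against OTX015, 13 to 14 for DW71177 against DW71374 and 17 to 21 for OTX015 against DW71374. The cause of these changes was not tested, beyond fewer arrays or more features. Same-numbered arrays did not deviate together (r from -0.09 to 0.10 over 30 pairs, against -0.10 to 0.14 over 60 others). These values gave no sign that the numbers pair the arrays, but they cannot show that the wells were not handled in matched sets. With the replicate number as a block the counts in the same order were 22, 16, 7, 0, 3, 15 and 20. Of the 37 genes 3 had means under 5, where signal over background limits what can be seen.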
